A study of Homo sapiens with 4 samples.

Results

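The genes described here are the zinc finger genes of human chromosome 19, taken as the protein-coding genes of that chromosome whose symbol is ZNF followed by a number. RefSeq lists 250 such genes among its 20056 protein-coding genes, and 187 of them carried a PABPC4 peak and 37 an HNRNPC peak. They held 589 of 63507 PABPC4 positions and 72 of 9107 HNRNPC positions. Membership used only the gene name and the chromosome, not the measured values.

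Both proteins were mapped in MDA-MB-231, an established triple-negative human breast cancer cell line, by ultraviolet cross-linking and immunoprecipitation of RNA bound to the endogenous protein (CLIP). The light dose was 400 mJ/cm2 at a wavelength of 254 nm. There were 2 samples for HNRNPC, a mainly nuclear RNA-binding protein that prefers runs of U, and 2 for PABPC4. PABPC4 is a poly(A)-binding protein that shuttles between nucleus and cytoplasm, and its cross-linked tags serve to map the 3′ ends of mRNA (PAPERCLIP). All 4 samples came from the same line, the labels name no treatment, and no control immunoprecipitation was analysed here. The deposited files hold 1 pooled peak list for each protein, so replicate error cannot be given for any value, and the depth of each sample is unknown. Shares are given with 95% Wilson intervals, which cover counting error only and treat peaks of the same gene as independent.

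Most ZNF proteins bind DNA through tandem C2H2 zinc fingers, and many carry a KRAB domain that recruits the corepressor TRIM28 (KAP1) and the methyltransferase SETDB1 to silence transposable elements. Human chromosome 19 holds large tandem clusters of these genes, which arose by repeated local duplication, and the coding sequence for the finger array usually lies in a single long last exon that runs on into the 3′ UTR. Alu elements are short primate retrotransposons derived from 7SL RNA. An Alu in the sense orientation carries an A-rich linker between its arms and an A-rich tail, whereas its antisense copy carries runs of U in the same places.

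Peak heights, in tags, ranged from 4 to 361 in the PABPC4 list for these genes, with a median of 32, and from 5 to 105 in the HNRNPC list, with a median of 11. Several gene IDs shared a position for 78 of the PABPC4 and 8 of the HNRNPC positions. The feature under the peak centre belonged to the annotated gene of that symbol for 546 of 589 PABPC4 peaks (92.7%) and 66 of 72 HNRNPC peaks (91.7%). In the other protein-coding genes of chromosome 19 these shares were 98.8% and 97.3%. Because duplicated genes resemble each other, each peak sequence was also searched against chromosome 19 with up to 2 mismatches. Another such place existed for 37 of 200 PABPC4 3′ UTR peaks, 128 of 350 PABPC4 intron peaks and 2 of 72 HNRNPC peaks. Tags under those peaks can therefore come from a paralogue or another copy of a repeat, and the narrowest peaks, of only a few bases, match many places for their length alone.

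The tallest 3′ UTR peaks that carried a poly(A) signal are shown first, because they display what a mapped 3′ end looks like in these genes. Each line gives 30 bases of hg38, from 26 bases before the 3′ edge of the peak to 4 bases after it, and capitals mark the signal AAUAAA or AUUAAA. The peaks held 172 tags in ZNF776, 151 in ZNF428, 148 in ZNF865, 147 in ZNF146 (a protein made almost wholly of zinc fingers) and 141 in ZNF574.
ZNF776 (chr19:57758126-57758155, plus strand): AAUAAAacugcuuguuaagcacauuugaau
ZNF428 (chr19:43607455-43607484, minus strand): auggccagAAUAAAagccaaaaucuguauc
ZNF865 (chr19:55617243-55617272, plus strand): agaauAAUAAAucuuaccaugagggccgcu
ZNF146 (chr19:36238739-36238768, plus strand): auuuuAUUAAAauuuaaaaggacagcacaa
ZNF574 (chr19:42081526-42081555, plus strand): ccaucAAUAAAgacugaguugccagcagug

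The signal began 26 bases before the edge in ZNF776, 18 in ZNF428 and 21 in each of ZNF865, ZNF146 and ZNF574. Except in ZNF428, whose edge lay 235 bases upstream of the nearest annotated transcript end, the edge was within 4 bases of an annotated end.

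Other tall 3′ UTR peaks stopped at an A-rich stretch of the genome and carried no signal. The next lines give the 30 bases just downstream of the 3′ edge, with the stretch in capitals, for ZNF577 (195 tags, the tallest 3′ UTR peak of the group), ZNF576 (184 tags) and ZNF121 (171 tags).
ZNF577 (chr19:51869608-51869637, minus strand): AAAAGAAAUAAgaaauaagacacagagaca
ZNF576 (chr19:43599490-43599519, plus strand): AAAAAAAAAAAAugggaagggagugcggga
ZNF121 (chr19:9562151-9562180, minus strand): AAAAAAAAAAAAAAAAAAAucacacagcac

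The edge in ZNF577 was 2590 bases and that in ZNF121 1828 bases upstream of an annotated end, whereas that in ZNF576 was 5 bases from one. The remaining members of the 10 tallest were ZNF534 with 180 tags, 37 bases upstream of an annotated end and followed by an A-rich stretch, and ZNF587 with 163 tags in a sense Alu. Thus 5 of the 10 tallest carried a signal, and none of the other 5 did.

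First, it was asked how many zinc finger genes of chromosome 19 were detected by each protein. PABPC4 peaks were present in 187 of 250 genes, or 74.8% (69.1 to 79.8%), against 58.4% of all protein-coding genes. The share was 52.2% (49.4 to 55%) in the 1201 other protein-coding genes of chromosome 19 and 71.2% (65.5 to 76.3%) in the 267 ZNF genes of other chromosomes. HNRNPC peaks were present in 37 of 250 genes, or 14.8% (10.9 to 19.7%), against 18.6% of all protein-coding genes, 16.6% (14.6 to 18.8%) of the other genes of chromosome 19 and 23.6% (18.9 to 29%) of the ZNF genes elsewhere. Both proteins were found in 35 genes, or 14% (10.2 to 18.8%), against 18.1% of all protein-coding genes. The share was 16.3% (14.3 to 18.5%) in the other genes of chromosome 19 and 22.5% (17.9 to 27.8%) in the ZNF genes elsewhere. Neither protein was found in 61 genes. As counted, only ZNF559-ZNF177, with 6 tags, and ZNF284, with 5 tags, had an HNRNPC peak without a PABPC4 peak. The group includes 4 symbols with a hyphen, and a position listed under several gene IDs went first to a symbol without one. PABPC4 peaks counted under ZNF177 also lie in the annotated readthrough gene ZNF559-ZNF177. With any listed gene ID counted, 190 genes had a PABPC4 peak and 38 an HNRNPC peak.

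The PABPC4 peaks of these genes were low. Taking the tallest supported 3′ end of each gene, as defined below, the median was 29 tags over 102 genes, against 102 tags over 511 other genes of chromosome 19 and 35 tags over 121 ZNF genes elsewhere. Intron peaks differed less, with a median of 32.5 tags against 37 in the other genes of chromosome 19. A gene with a peak held a median of 2 PABPC4 peaks. Of the 187 genes, 64 had a single peak, 38 had 5 or more and 6 had 10 or more, namely ZNF83 with 24, ZNF586 with 18, ZNF254 and ZNF544 with 14, and ZNF714 and ZNF431 with 10. The tallest peak of the gene lay in an intron in 90 genes and in a 3′ UTR in 85.

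The genes were next placed along the chromosome. Neighbouring members separated by at most 500 kb, in runs of at least 5, formed 10 clusters with 236 members, and 14 members lay outside them. The clusters with the lowest and the highest share of genes with a PABPC4 peak, picked after the values were seen, had intervals that did not overlap. The intervals of every other pair of clusters overlapped. In the cluster from ZNF101 to ZNF254, which spans 4.46 Mb, 20 of 37 genes had one (54.1%, 38.4 to 69%), whereas in the cluster from ZNF175 to ZNF331 36 of 41 did (87.8%, 74.5 to 94.7%). The other large clusters gave 21 of 25 genes from ZNF653 to ZNF791, 22 of 26 from ZNF565 to ZNF573, 17 of 23 from ZNF575 to ZNF180 and 28 of 43 from ZNF264 to ZNF446. All 14 genes outside the clusters had a PABPC4 peak. Median heights of the tallest peak per gene lay between 39 and 71 tags in all clusters.

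**Figure D1:**
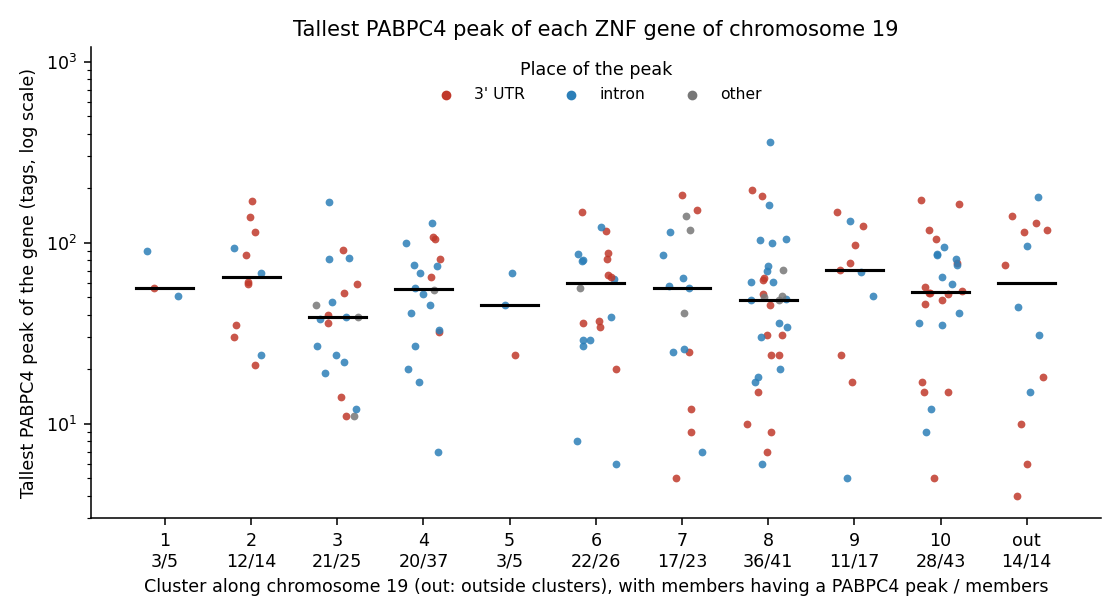
Height in tags, on a log scale, of the tallest PABPC4 peak of each of the 187 genes with a peak, by cluster in chromosome order, with black bars for medians and the number of genes with a peak over the number of members under each cluster. Medians lie between 39 and 71 tags, and the tallest point, at 361 tags, is the intron peak of ZNF83 in cluster 8.

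A supported 3′ end was then defined as an exon peak whose 3′ edge lay within 50 bases of an annotated transcript end of the gene, or a 3′ UTR peak with a poly(A) signal starting in its last 40 bases and no A-rich stretch in the 50 bases downstream. An A-rich stretch was a run of 6 A or 7 A among 10 bases. There were 121 supported ends in 102 genes (40.8%, 34.9 to 47%), against 43.9% of all protein-coding genes. Of these ends 101 lay at an annotated end, 64 of them within 5 bases, and 20 rested on the signal alone. AAUAAA stood before 63 ends and AUUAAA before 23. The other 35 had neither, and 24 of those were followed by an A-rich stretch. The signal nearest the edge began a median of 20.5 bases before the edge, with quartiles of 17.2 and 23.8. By the stricter measure of a signal and no A-rich stretch, 76 of the 121 ends remained. A run of 7 or more A stood inside the last 26 bases of 5 ends.

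The 200 3′ UTR peaks of the group, in 129 genes, divided as follows. An annotated end with a signal and no A-rich stretch held 54 peaks in 52 genes, an annotated end with no signal or with an A-rich stretch downstream 38 peaks, and a signal away from any annotated end 20. Of the 88 unsupported peaks, 41 lay in a sense Alu, 24 were followed by an A-rich stretch outside Alu, and 23 had none of these features. The peaks of the sense Alu class were taller than those of the best supported class, with a median of 41 against 24.5 tags. A 3′ UTR peak but no supported end was found in 30 genes, and 3 genes had a supported end only in another kind of exon.

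Sense Alu elements held 50 of the 200 3′ UTR peaks, or 25% (19.5 to 31.4%), in 31 genes. The share was 7.49% (5.94 to 9.41%) of 894 peaks in the other genes of chromosome 19, 10.1% (6.97 to 14.4%) of 258 peaks in ZNF genes of other chromosomes and 6.52% over all protein-coding genes, and no interval of these overlapped that of the group. Counting only peaks no lower than the list's median height, the share was 35.3% (26 to 45.9%) in the group and 6.89% (5.12 to 9.21%) in the other genes of chromosome 19. The annotated 3′ UTRs of the 129 genes with such peaks were themselves 8.65% sense Alu by length, and those of the corresponding 538 other genes of chromosome 19 were 5.45%. Their median length was 2464 bases in the group and 852 bases in the other genes. By this measure a sense Alu held 25% of the peaks on 8.65% of the length in the zinc finger genes, and 7.49% on 5.45% in the others. An antisense Alu held 0 of the 200 peaks, although antisense copies covered 8.35% of the length, and a count of 0 in 200 allows a share of up to 1.88% (upper Wilson bound).

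The tallest of these were the 171 tags of ZNF121, the 163 tags of ZNF587, 138 in ZNF699, and 117 in each of ZNF114 and ZNF8. ZNF714 held 5 such peaks, the most of any member, and ZNF587, ZNF562 and ZNF791 held 4 each. Of the 50 peaks, 32 were followed by an A-rich stretch, 9 lay at a supported end and 14 had another near-identical place on chromosome 19. A poly(A) signal was found in 2 of the 50, or 4% (1.1 to 13.5%). Over all 200 3′ UTR peaks a signal was found in 45.5% (38.7 to 52.4%), against 53.4% (50.1 to 56.6%) in the other genes of chromosome 19. Outside sense Alu these shares were 59.3% (51.3 to 66.9%) and 56.2% (52.8 to 59.6%), and the intervals overlapped.

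**Figure D2:**
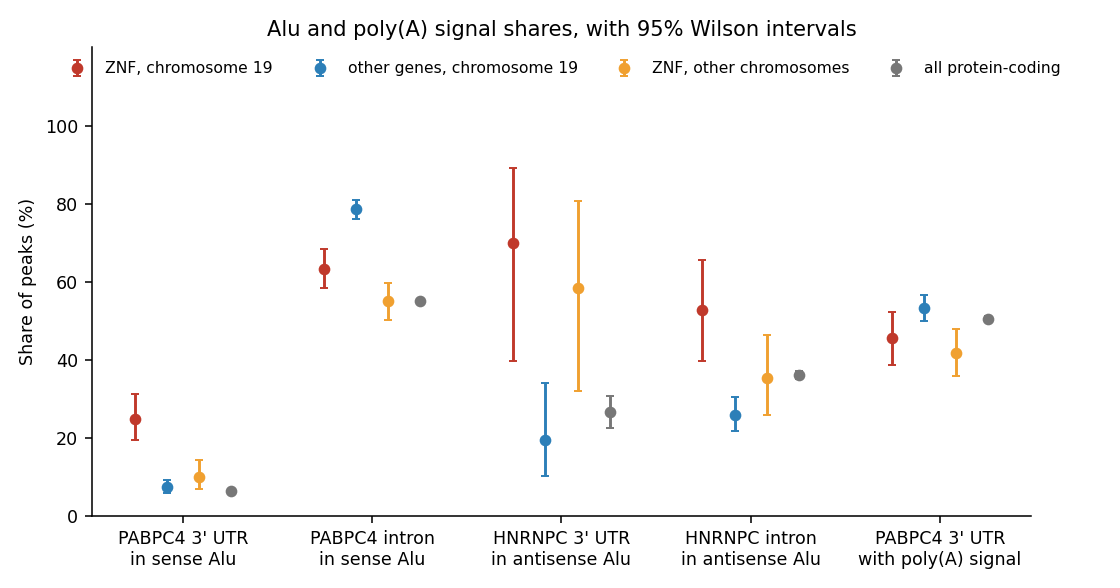
Share of peaks, in percent, in an Alu of the stated orientation or with a poly(A) signal, for the zinc finger genes of chromosome 19, other protein-coding genes of that chromosome, ZNF genes elsewhere and all protein-coding genes, with 95% Wilson intervals as bars. The group's 3′ UTR share in sense Alu, 25%, stands above the 7.49%, 10.1% and 6.52% of the other groups, and the shares of 3′ UTR peaks with a poly(A) signal run from 41.9% to 53.4%.

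At least 2 supported ends were found in 18 of the 250 genes (7.2%, 4.6 to 11.1%), against 13.7% of all protein-coding genes. Restricted to genes with a supported end, the share was 17.6% (11.5 to 26.2%) in the group, 24.5% (20.9 to 28.4%) in the other genes of chromosome 19, 16.5% (11 to 24.2%) in ZNF genes elsewhere and 31.2% over all protein-coding genes. Of the 18 genes, 17 had 2 ends and ZNF714 had 3. This gave 19 upstream ends, 88 to 89984 bases (median 2801) before the most downstream end of the same gene. The longest distance, under ZNF114, placed the upstream end outside the annotated ZNF114 gene, in the 3′ UTR of its neighbour ZSWIM9, and without it 17 genes remained.

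Both the upstream and the last end carried a signal and no A-rich stretch downstream in 8 genes. These include ZNF114, whose upstream end lies in ZSWIM9, and 6 of the other pairs are shown so that the sequences can be compared. Each line again gives 30 bases from 26 before to 4 after the edge, with the signal in capitals.
ZNF234 upstream (chr19:44158115-44158144, plus strand): ggugAUUAAAaaaaaaaaaacagaacucau
ZNF234 last (chr19:44158976-44159005, plus strand): gcgaAAUAAAauuauuugcagaaaugaaca
ZNF561 upstream (chr19:9607430-9607459, minus strand): ugaauuccucuugaauuuAUUAAAugcuuc
ZNF561 last (chr19:9607340-9607369, minus strand): uuccuggccaaugaugguauguAAUAAAua
ZNF470 upstream (chr19:56581662-56581691, plus strand): gauaucaaaAAUAAAaaucaaaauauauau
ZNF470 last (chr19:56582867-56582896, plus strand): agaaAAUAAAuguugguuguuuaagccacc
ZNF600 upstream (chr19:52765496-52765525, minus strand): auaaugAAUAAAgaucuaacaaguguaaua
ZNF600 last (chr19:52764188-52764217, minus strand): aaacaaaaaauauuaaaaaaaaacAUUAAA
ZNF550 upstream (chr19:57542633-57542662, minus strand): uugugguAUUAAAuuauuuuuaaauuaugu
ZNF550 last (chr19:57541836-57541865, minus strand): aaagAUUAAAcauauugauuuuaauuaaua
ZNF134 upstream (chr19:57621896-57621925, plus strand): gauAAUAAAggcuuuacaguuuaagccaca
ZNF134 last (chr19:57624697-57624726, plus strand): acAAUAAAagcugcuugccuuugcuucacu

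In ZNF561 the ends lay 90 bases apart with 59 and 55 tags, a difference within counting error, and the signals began only 8 and 4 bases before the edge, closer than at most ends. The tag difference was also within counting error for ZNF470, with 24 tags upstream and 18 at the last end 1205 bases on, and for ZNF600, with 24 and 15 tags 1308 bases apart. The last end of ZNF600 has a further AUUAAA upstream of the one in capitals, which is the copy nearest the edge and begins only 2 bases before it. A genomic run of A stands directly after the further copy, inside the peak. ZNF550 had 27 tags at an end 797 bases before a last end of 14 tags, and ZNF134 had 40 tags 2801 bases before one of 22. With summit heights taken as counts, the upstream end held the larger share beyond counting error in both, at 65.9% (50.5 to 78.4%) and 64.5% (52.1 to 75.3%). The upstream end of ZNF234, with 95 tags against 13 at the last end 861 bases on, lay in coding sequence of one transcript and within 21 bases of the annotated end of another. The line above shows that it sits on a genomic run of A directly after its AUUAAA, inside the peak rather than downstream of it.

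Across all 19 upstream ends, 14 were taller than the last end of the gene and 5 were lower. The end in ZSWIM9 listed under ZNF114 is counted among the 14, with 54 against 26 tags. With summit heights taken as counts, the share at the upstream end exceeded 50% beyond its interval for 9, ZNF114 among them. It fell below 50% for 3 and could not be told from it for 7. A summit height is not the number of all tags at an end. The tallest upstream end, with 118 tags against 14, was in ZNF224, a KRAB repressor. It lay in a retained-intron transcript 13927 bases before the last end, in a sense Alu and before an A-rich stretch. ZNF714 had 105 tags at an end 6631 bases before its last end of 43 tags. Both of these ends lay in a sense Alu, had no signal and were followed by an A-rich stretch. A further end of 26 tags, 33341 bases before the last, had a signal that began only 2 bases before its edge. In ZNF57 the ends were 88 bases apart with 56 and 29 tags. Its upstream end had no signal, and its last end had one but was followed by an A-rich stretch. The narrow peak at that last end had 18 near-identical places on chromosome 19 in all. In ZNF585A the upstream end, 14344 bases before the last, was the lower one, with 36 against 88 tags. That upstream end had AAUAAA and no A-rich stretch, whereas the last end had no signal and was followed by an A-rich stretch. ZNF473, which encodes a component of the histone pre-mRNA processing complex, had 12 and 11 tags at ends 1606 bases apart.

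Of the 19 upstream ends, 13 lay at an annotated end, 12 carried a signal, 5 were followed by an A-rich stretch and 3 lay in a sense Alu. A signal without an A-rich stretch was present at 11 of them, in 11 genes, and 9 of these 11 were taller than the last end. The ZSWIM9 end listed under ZNF114 is among those 9.

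**Figure D3:**
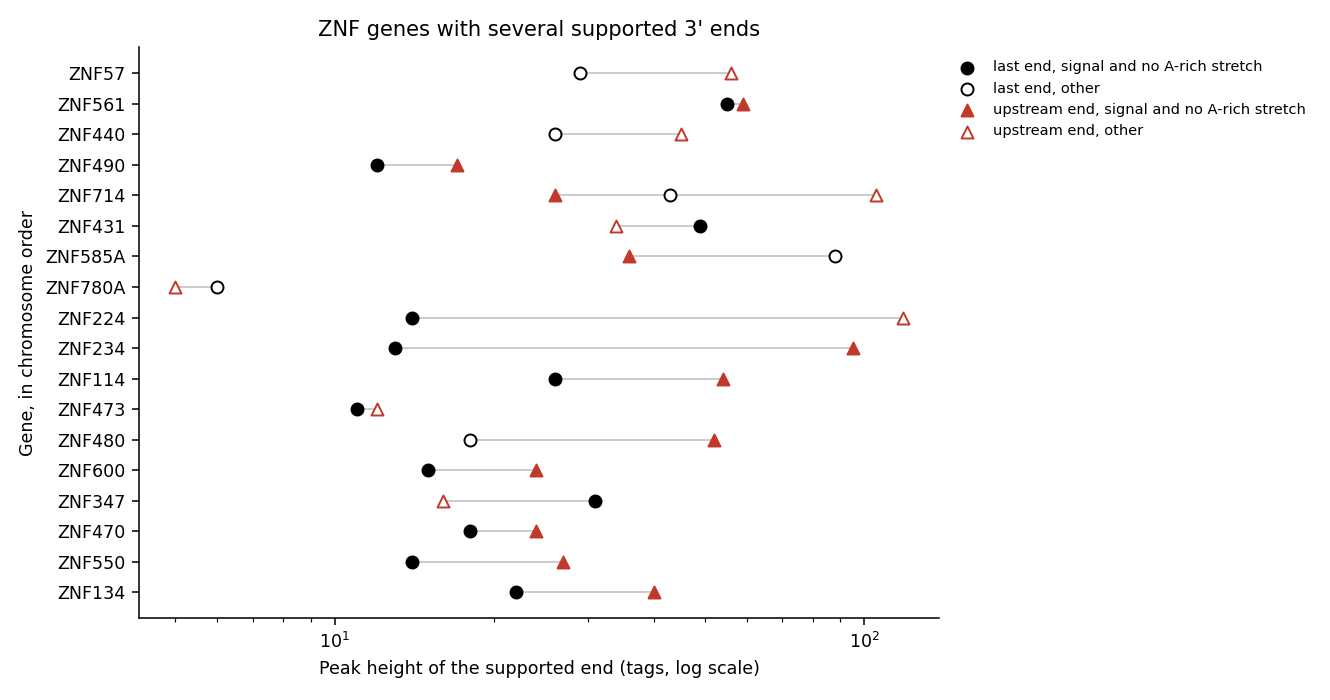
Peak height in tags, on a log scale, of the last supported end (circles) and upstream ends (triangles) of the 18 zinc finger genes with several ends, filled where the end has a poly(A) signal and no A-rich stretch downstream. The upstream end is the taller at 14 of 19 triangles, most widely in ZNF224 (118 against 14 tags) and ZNF234 (95 against 13). The triangle of ZNF114 is an end that lies in its neighbour ZSWIM9.

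Intron peaks that could be premature 3′ ends were sought by requiring a poly(A) signal, no A-rich stretch downstream and no Alu match. They numbered 6 of the 125 PABPC4 intron peaks outside Alu and lay in 5 genes (2%, 0.857 to 4.6%), against 2.56% of all protein-coding genes 0.666% (0.338 to 1.31%) of the other genes of chromosome 19 and 2.25% (1.03 to 4.82%) of the ZNF genes elsewhere. Their sequences are given from 40 bases before to 50 bases after the edge, with the signal in capitals, so that the lack of an A-rich stretch after the edge can be seen.
ZNF730 (chr19:23103326-23103415, plus strand): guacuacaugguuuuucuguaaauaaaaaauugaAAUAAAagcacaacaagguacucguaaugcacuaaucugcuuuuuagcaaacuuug
ZNF701 (chr19:52568705-52568794, plus strand): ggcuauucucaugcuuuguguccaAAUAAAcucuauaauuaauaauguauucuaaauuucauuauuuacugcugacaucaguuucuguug
ZNF83 (chr19:52641319-52641408, minus strand): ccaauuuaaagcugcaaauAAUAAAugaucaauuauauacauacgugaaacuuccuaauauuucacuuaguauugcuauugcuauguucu
ZNF83 (chr19:52644516-52644605, minus strand): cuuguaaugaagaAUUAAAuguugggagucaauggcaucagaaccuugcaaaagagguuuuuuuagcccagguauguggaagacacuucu
ZNF544 (chr19:58274559-58274648, plus strand): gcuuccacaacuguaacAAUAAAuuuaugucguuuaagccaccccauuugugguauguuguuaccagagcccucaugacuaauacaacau
ZNF8 (chr19:58303598-58303687, plus strand): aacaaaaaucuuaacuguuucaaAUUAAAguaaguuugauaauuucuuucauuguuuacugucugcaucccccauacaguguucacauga

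The pair in ZNF83 held 49 and 61 tags, in the order printed, and the others 20 in ZNF730, 18 in ZNF701, 12 in ZNF544 and 14 in ZNF8. In ZNF730 and ZNF701 none of the coding bases lay upstream of the peak, and in ZNF83 6.56% did. The ZNF701 peak, with its edge at base 52568744, lay before the RefSeq start of ZNF701 at base 52570287. The RefSeq end of the neighbouring member ZNF808, at base 52568753, lay close to that edge. Whether the peak is an end of ZNF808 was not tested. Where a sequence holds the signal more than once, as in ZNF730, capitals mark the copy nearest the edge. In ZNF544 92.9% of the coding bases lay upstream. The ZNF8 peak followed the whole coding sequence, in an intron of the readthrough transcript ZNF8-ERVK3-1 beyond the annotated ZNF8 gene. The 61-tag peak of ZNF83 and that of ZNF701 had other near-identical places on chromosome 19, 2 and 3 places in all.

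Introns held 350 of the 589 PABPC4 peaks, or 59.4% (55.4 to 63.3%), against 51% (48.9 to 53.1%) in the other genes of chromosome 19, 57.6% (54 to 61.1%) in ZNF genes elsewhere and 59.7% over all protein-coding genes. To see how these were linked to Alu, peaks were matched to a consensus of 280 bases built from 198 chromosome 19 copies. Positions below refer to it, and its bases 111 to 140 hold the A-rich linker.

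A sense Alu held 222 of the 350 intron peaks, or 63.4% (58.3 to 68.3%), in 104 genes, and an antisense Alu held 3. Sense Alu covered 9.38% and antisense Alu 13.3% of the intron length of the genes with a PABPC4 peak. The other genes of chromosome 19 had 78.6% (76.1 to 80.9%) of their intron peaks in sense Alu, on 14.2% of the intron length, and ZNF genes elsewhere 55% (50.3 to 59.7%). Within the group the share was 81.4% (67.4 to 90.3%) in the cluster from ZNF653 to ZNF791 and 46.6% (35.6 to 57.9%) in the cluster from ZNF175 to ZNF331. The latter holds ZNF83, of whose 23 intron peaks 9 were in a sense Alu.

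Of 284 sense Alu peaks in introns and exons, 126 (44.4%, 38.7 to 50.2%) had their 3′ edge at base 261 or later and 27 within the linker at bases 111 to 140, with 97 between these and 34 before the linker. In the other genes of chromosome 19 the shares were alike, with 44.7% (41.7 to 47.8%) from base 261 on and 6.9% (5.49 to 8.62%) in the linker, against 9.51% (6.62 to 13.5%) in the linker here. An A-rich stretch followed 65.8% of the sense Alu intron peaks and 68% of the intron peaks outside Alu.

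Taking the tallest of each gene, the leading sense Alu intron peaks held 361 tags in ZNF83, 168 in ZNF700, 128 in ZNF724, 122 in ZNF829 and 107 in ZNF776, and ZNF83 had further ones of 140 and 130 tags. An A-rich stretch followed each of these within 50 bases except that of ZNF829. The ZNF83 peak sequence had 5 near-identical places on chromosome 19, that of ZNF829 had 3 and that of ZNF776 had 2.

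**Figure D4:**
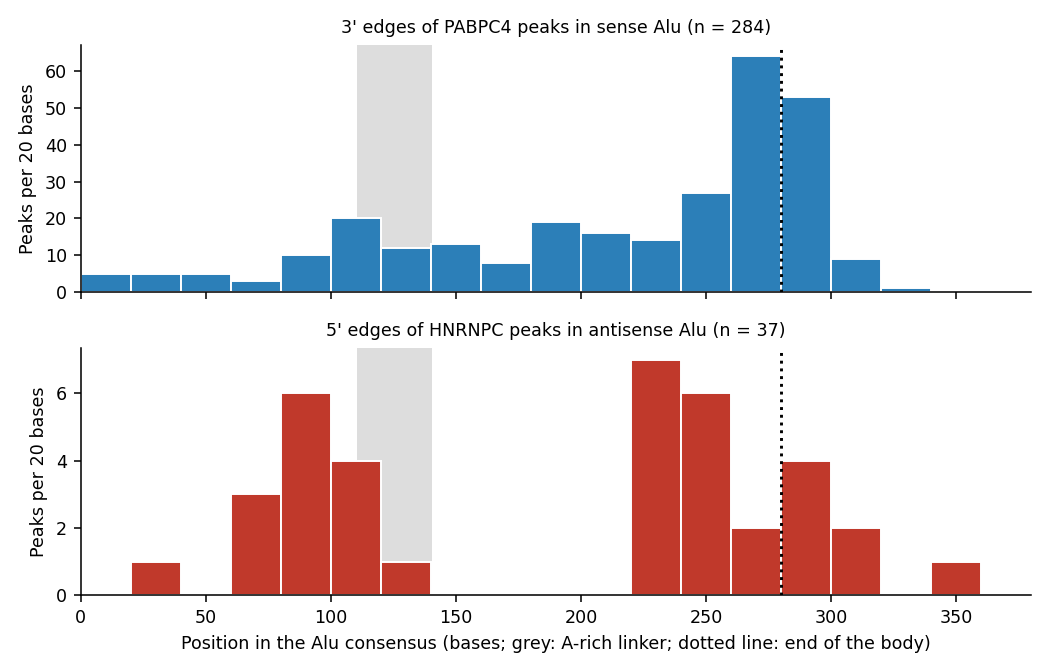
Number of peaks per 20 bases of the Alu consensus, for the 3′ edges of 284 PABPC4 peaks in sense Alu (top) and the 5′ edges of 37 HNRNPC peaks in antisense Alu (bottom) of the zinc finger genes. PABPC4 edges pile up at the end of the body, with 126 from base 261 on, 27 fall in the linker, and the median HNRNPC edge lies at base 233.

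HNRNPC peaks in these genes lay mainly in introns, with 53 of 72 (73.6%, 62.4 to 82.4%). A further 10 lay in 3′ UTRs, 4 in 5′ UTRs and 4 in non-coding exons, and none in coding sequence. An antisense Alu held 28 of the 53 intron peaks, or 52.8% (39.7 to 65.6%). The share was 26% (21.8 to 30.6%) in the other genes of chromosome 19, an interval that did not overlap. It was 35.4% (25.8 to 46.4%) in ZNF genes elsewhere, an interval that did overlap, and 36.2% over all protein-coding genes. Without ZNF83, which alone held 13 of the 72 peaks, it was 55% (39.8 to 69.3%). Antisense Alu covered 13.3% of the intron length of the members and 15.4% of that of the other genes of chromosome 19.

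Likewise, the leading antisense Alu intron peaks by gene held 55 tags in ZNF90, 33 in ZNF83, 32 in ZNF841, 30 in ZNF253 and 21 in ZNF587B. Runs of U are the kind of sequence HNRNPC prefers. A run of at least 5 U between 30 bases before and 10 after the 5′ edge was found for 11 of 37 antisense Alu peaks in the group (29.7%, 17.5 to 45.8%) and for 62 of 116 in the other genes of chromosome 19 (53.4%, 44.4 to 62.3%), with 48.6% (33.4 to 64.1%) in ZNF genes elsewhere. Outside Alu it was found for 6 of 34 (17.6%, 8.35 to 33.5%), against 6.37% (4.28 to 9.38%) in the other genes of chromosome 19 and 9.09% (4.23 to 18.4%) in ZNF genes elsewhere. The 6-mer GUGUCA, searched on the RNA strand, stood in the last 20 bases of 16 of the 72 peaks (22.2%, 14.2 to 33.1%), among them the ZNF90, ZNF253 and ZNF587B peaks, and of 23.8% of all HNRNPC peaks in protein-coding genes. In the PABPC4 list the same 6-mer stood there in 0.509% of the group's peaks and 0.222% of those in all protein-coding genes, and its origin was not tested. Leaving out HNRNPC peaks with that 6-mer gave antisense Alu shares of 57.5% (42.2 to 71.5%) in the group, 31.3% (25.9 to 37.3%) in the other genes of chromosome 19 and 50.9% (37.9 to 63.9%) in ZNF genes elsewhere.

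The highest HNRNPC peak of the group, 105 tags in ZNF875, lay in a 5′ UTR outside Alu. In 3′ UTRs, HNRNPC was found at 10 places in 8 genes, and 7 of the 10 were in an antisense Alu, against 8 of 41 in the other genes of chromosome 19, 7 of 12 in ZNF genes elsewhere and 26.6% over all protein-coding genes. ZNF587 had the tallest, with 49 tags in an antisense Alu, 1169 bases from the nearest PABPC4 peak. Next came ZNF8, with 44 and 10 tags outside Alu, whose centres lay 4033 and 4937 bases downstream of a supported 3′ end of 82 tags. ZNF587B had 13 tags, ZNF121 12 and 10, ZNF562 10, ZNF550 9, ZNF468 7 and ZNF561 6. In ZNF121 the 10-tag peak lay 461 bases from the 171-tag sense Alu PABPC4 peak of the same 3′ UTR. In ZNF468 the supported end, of 15 tags, lay 533 bases downstream of the HNRNPC peak's centre. A supported 3′ end was present in 25 of the 37 genes with an HNRNPC peak, in 102 of all 250 genes of the group and in 43.9% of all protein-coding genes. The share among genes with an HNRNPC peak outside the group was not computed.

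After ZNF83, the members with the most HNRNPC peaks were ZNF254 with 4 and ZNF90, ZNF544 and ZNF121 with 3 each. Except for 1 peak of 11 tags, those listed under ZNF254 lay in non-coding exons of another annotated gene. The HNRNPC peaks listed under ZNF114 lay in introns of ZSWIM9. The cluster from ZNF101 to ZNF254 had the lowest share of genes with a PABPC4 peak. It held 17 HNRNPC peaks in 8 genes, 10 of them intron peaks in an antisense Alu.

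ZNF83 had the most peaks of any member for both proteins. Its 24 PABPC4 peaks ranged from 14 to 361 tags with a median of 59, and 8 held 100 tags or more. All but 1 lay in introns, and 17 fell in the stretch from 40 to 54 kb along the 96.5 kb gene. Its single supported end, of 57 tags at base 52612378 of chromosome 19 (hg38, minus strand), coincided with an annotated transcript end and had a signal 20 bases upstream. The 13 HNRNPC peaks, of 11 to 33 tags with a median of 13, all lay in introns, 6 in antisense Alu, and 3 fell in the stretch rich in PABPC4 peaks. The next member by PABPC4 peaks, ZNF586, had 18, of which 17 were in introns and 11 of these in sense Alu.

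**Figure D5:**
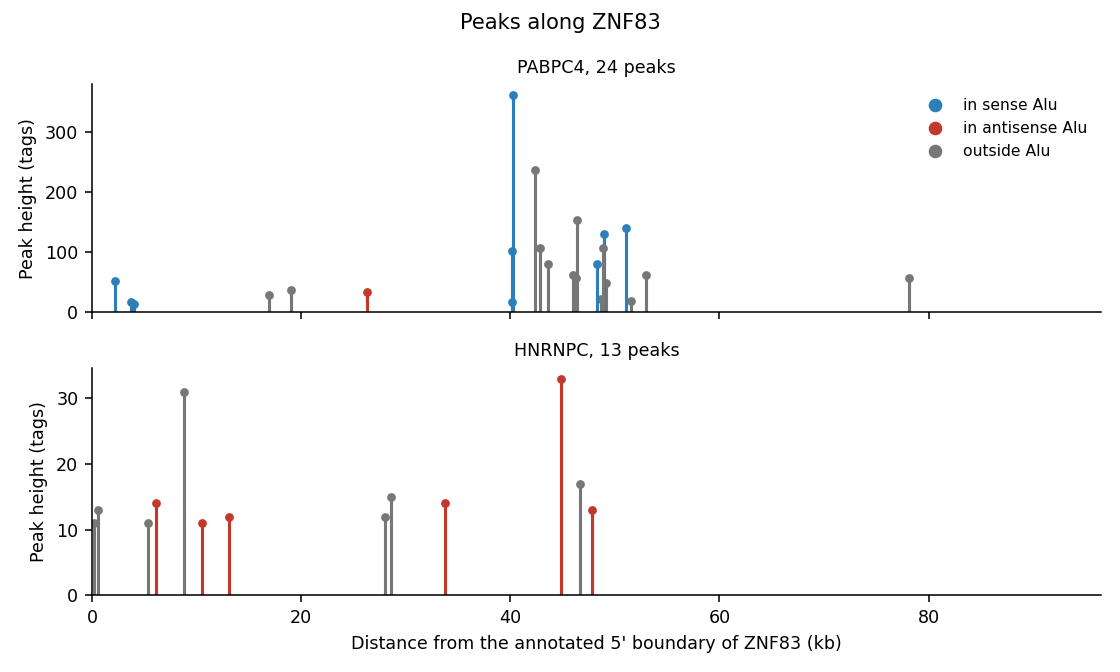
Height in tags of each PABPC4 peak (top, 24) and HNRNPC peak (bottom, 13) of ZNF83 against the distance in kb of its centre from the annotated 5′ boundary of the gene, coloured by Alu orientation. PABPC4 peaks crowd between 40 and 54 kb, where 17 of 24 lie, and 3 of the 13 HNRNPC peaks fall in that stretch.

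Finally, the genes that encode the partners of KRAB zinc fingers were examined in the same lists. TRIM28, which also lies on chromosome 19, had a single PABPC4 peak of 884 tags at a supported 3′ end, taller than any peak of the zinc finger genes. SETDB1 had 8 tags at its supported end, and the heterochromatin proteins CBX1, CBX3 and CBX5 had 25, 171 and 70. In the HUSH silencing complex and its associates, the tallest supported ends held 66 tags in TASOR, 14 in MPHOSPH8, 192 in PPHLN1, 25 in MORC2 and 166 in ATF7IP. All 10 of these genes thus had a supported end, against 43.9% of all protein-coding genes, and 7 had HNRNPC peaks, the tallest of each 7 to 27 tags, against 18.6%.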

How the data were processed

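HNRNPC and PABPC4 CLIP libraries of MDA-MB-231 cells were analysed from the peak lists, 2 samples per protein. Per the labels and the study's methods, the authors collapsed reads with unique molecular identifiers (UMI-tools), trimmed them with cutadapt, aligned them to hg38 with BWA 0.7.17 and called peaks with the CTK toolkit. They deposited 1 list for the 2 samples of each protein, read here as pooled. The deposited signal is the peak height in tags at the summit, and the highest p-value kept was 0.05 for PABPC4 and 0.1 for HNRNPC. Counting error between 2 ends of a gene took these heights as counts. Depth per sample is unknown, so only counting error is given, as 95% Wilson intervals.

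Each position was counted once (63507 PABPC4 positions from 69778 rows, 9107 HNRNPC positions from 10388). Gene IDs were named through RefSeq GRCh38.p14, and 249 of 250 genes matched GENCODE 44 by symbol. Each peak took the feature of its centre on its strand, in the order 3′ UTR, coding, 5′ UTR, non-coding exon, intron. Supported ends within 50 bases of each other were merged. Alu matches came from BLAST 2.17.0+ of each peak with 100 bases on each side against the consensus aligned with MAFFT 7.526, at an E-value of at most 1e-05. Other places were sought with BWA 0.7.19. Python 3.11.15, pandas 2.3.3, numpy 2.4.6, pysam 0.24.0 and matplotlib 3.10.9 were used, and the code was tested on simulated data.

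Named genes were the 10 with the tallest 3′ UTR peaks, the 5 leading genes for number of ends, upstream ends, candidate intronic ends, Alu-linked intron peaks of each protein and number of HNRNPC peaks, and every gene with an HNRNPC 3′ UTR peak. Further genes named (those with most peaks, and the other pairs of ends) were chosen after their values were seen. The genes and lists were chosen with earlier results of these data known. Alternatives changed the p-value, height, gene ID, window, signal, A-rich, Alu and cluster settings. The sequences of the Alu consensus and of Alu-linked peaks are not reported here.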

Additional observations from a re-analysis of the deposited data

How the results depend on the processing

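Of 65 alternative values for 12 results, 12 moved. A change of direction was not scored separately. The other 53 stayed within 1.5 times the reported count or inside the 95% interval of the reported share, a wide band for shares of few peaks: with only peaks at or above the median height, 41.9% of HNRNPC intron peaks were in antisense Alu in place of 52.8%. With the same height limit, genes with a PABPC4 peak numbered 119 in place of 187, those with a supported end 43 in place of 102, those with at least 2 ends 2 in place of 18, those with a candidate intronic end 1 in place of 5, and those with an HNRNPC peak 20 in place of 37. The same limit gave a poly(A) signal in 32.9% of 3′ UTR peaks in place of 45.5%, and 83.8% of HNRNPC peaks in introns in place of 73.6%. With AAUAAA alone the signal share was 34%. Genes with at least 2 ends numbered 9, ZNF114 among them, when ends before an A-rich stretch were left out. Candidate intronic ends were in 8 genes when the A-rich stretch was sought within 20 bases. Of the 11 alternatives chosen after seeing the data, 2 moved. The signal share outside sense Alu was 59.3%. When each end needed a signal and no A-rich stretch, 8 genes had at least 2 ends, ZNF114 among them. The causes were not tested. Clusters numbered 12 with a gap of 250 kb and 9 with 1000 kb, in place of 10.

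No paired analysis was possible because the authors pooled the 2 samples of each protein into 1 list, and leaving out a replicate could not be done for the same reason.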
